A study of Mus musculus with 29 samples.

Results

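A T cell receptor chain was counted here when its CDR3, the loop formed where the V segment joins the J segment, held a cysteine (C) at any position other than the first. Of 49343 clonotypes with a resolved CDR3, 2694 met this rule: 175 of 21959 alpha (TRA) clonotypes and 2519 of 27384 beta (TRB) clonotypes. A clonotype here is 1 CDR3 amino acid sequence with its V and J names. The samples came from metastases in the brain and the ovary of mice in a model of melanoma with mutated Braf, from a study of an antibody against PD-L1, the ligand of the checkpoint receptor PD-1, given with trametinib, an inhibitor of the kinase MEK. The untreated samples (labelled as having no treatment, with vehicle in their titles) and those of the anti-PD-L1 lead-in alone carry day 0. Trametinib alone, trametinib with anti-PD-L1 (the concurrent combination) and the lead-in followed by both agents (the lead-in combination) carry day 3.

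Each title gives a number and, in all but 1 brain sample, a part of that number. Brain had 3 untreated samples and 4 of each other treatment, from 2 numbers each. Ovary had 2 parts of 1 number for each treatment, and these 5 numbers also gave brain samples. Since no label ties a number to an animal, a p-value reflects only how far numbers differ, which may be technical. Labels used here name no cell line, mouse strain or age. Depth differed between the organs. Brain samples held 230 to 9389 TRA and 266 to 7067 TRB counts, and ovary samples 14088 to 51549 TRA and 16179 to 51674 TRB counts.

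The first residue of nearly every CDR3 is a conserved cysteine that closes the fold of the V domain, so a further cysteine in the loop has no partner fixed by that fold. In mice, a cysteine near the tip of the CDR3 is known as a mark of strongly self-reactive thymocytes, and it is rarer among conventional T cells that have passed negative selection than among their precursors. A cysteine at the start of the CDR3 can instead come from the V segment itself and carries no such meaning. Whether a chain marks self-reactivity in these tumours was not measured.

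Most of the extra cysteines were of the germline kind. Names of a single V segment with at least 20 clonotypes were examined for this in both chains, and names that join several segments were not. Among those examined, only TRBV1 had a cysteine at 1 shared position, from the second to the sixth residue, in 50% or more of its clonotypes. It held the cysteine at position 3 in 2226 of its 2247 clonotypes (99.1%) and in 25270 of its 25313 counts. These 2226 clonotypes made up 88.4% of the TRB clonotypes with an extra cysteine and 82.6% of those of both chains. The remaining TRB clonotypes held 293 with an extra cysteine among 25137 (1.17%), with 704 of 264052 counts (0.267%). The 175 TRA clonotypes were 0.797% of TRA clonotypes and held 707 of 319742 counts (0.221%). The 3 sets were kept apart below, as TRBV1, other TRB and TRA chains.

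The largest clonotypes of each set show where the cysteine sat. They are printed because each is among the 3 highest of its set in total counts, or led an ovary group. To lead is to have the highest mean share of the chain's counts among clonotypes with an extra cysteine, and larger clonotypes without one exist. Chains of 15 or more residues are named by their start only. Positions are counted from 1 at the first residue, and the extra cysteine is at position 3 in the TRBV1 and the TRAV13D-1 sequences, and at position 4, 10 and 4 in the others, in order.
TRBV1-TRBJ2-1: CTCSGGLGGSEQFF
TRBV1-TRBJ1-1: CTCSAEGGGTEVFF
TRBV1-TRBJ2-5: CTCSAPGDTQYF
TRAV13D-1-TRAJ40: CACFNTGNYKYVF
TRAV13D-1-TRAJ27: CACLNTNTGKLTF
TRAV16D/DV11V16N-TRAJ30: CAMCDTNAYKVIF
TRBV19-TRBJ2-7: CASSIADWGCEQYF
TRBV12-2-TRBJ2-7: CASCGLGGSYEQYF
The 3 TRBV1 chains held 4118, 1504 and 821 counts over all samples, and a TRBV1-TRBJ1-2 chain of 15 residues that opens CTCSAEG held 1624. The 3 TRA chains held 212, 22 and 19 counts, and the TRBV19 and TRBV12-2 chains 16 and 13. A TRBV14-TRBJ2-5 chain of 16 residues that opens CASSC held 14. No other TRB clonotype with an extra cysteine exceeded 16 counts.

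The start of the TRBV1 loop was nearly constant. CTC opened 2186 of the 2247 TRBV1 CDR3s (97.3%), CTCS 2088 and CTCSA 1667 (74.2%). CTCSAD opened 666 (29.6%), and CTCSG 210, which were 9.35% of TRBV1 clonotypes but 24.6% of TRBV1 counts. The 21 TRBV1 clonotypes with no extra cysteine held 43 counts in all, and none exceeded 8. In 14 of the 21 the residue at position 3 was arginine (R). Of the 21, 11 lay 1 residue from a clonotype of the same V and J names with at least 10 times their counts in the same sample, as in the following pair.
Larger: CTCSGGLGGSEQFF
Smaller: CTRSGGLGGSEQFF
This pair differed by C3R, the larger chain's residue given first, and held 4118 and 8 counts.

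Outside TRBV1 the extra cysteine lay in different places in the 2 chains. Of 177 extra cysteines in TRA, 84.7% were outside the first 3 and the last 3 residues, and 52.5% lay within 2 residues of the middle of the CDR3. Position 4 was the most frequent, with 37 clonotypes. Of 295 extra cysteines in other TRB chains, 49.8% lay outside both ends and 31.2% within 2 residues of the middle. There, 50 clonotypes had the cysteine at position 3 and 84 at the last residue but 1, where most TRB J segments place tyrosine or phenylalanine. A cysteine within 2 residues of the middle was present in 93 TRA clonotypes, 0.424% of all TRA clonotypes, and in 92 other TRB clonotypes, 0.366% of that set.

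**Figure D1:**
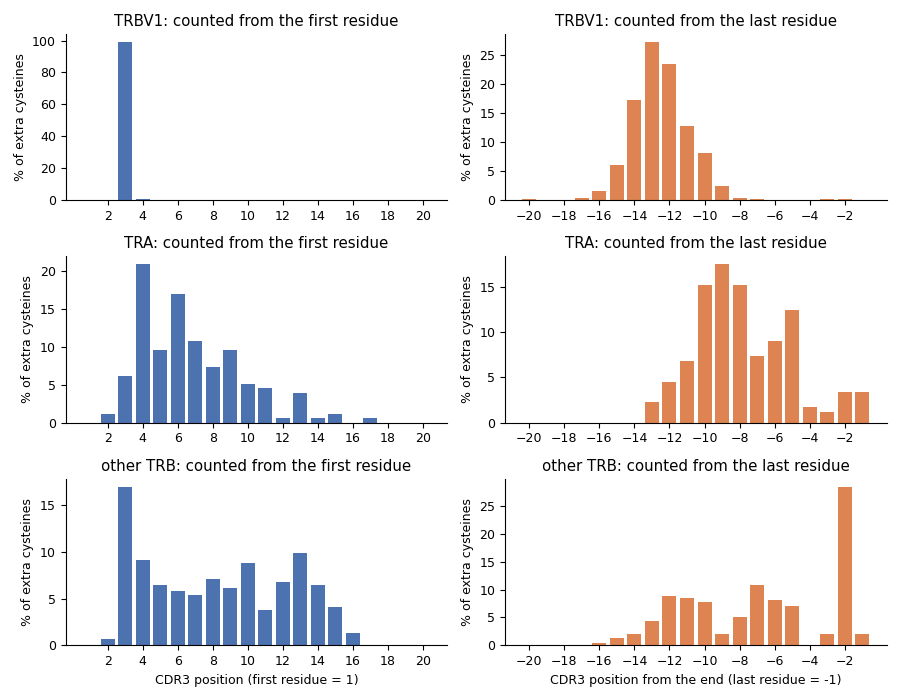
Position of the extra cysteines in TRBV1, TRA and other TRB clonotypes, as the percent of all extra cysteines of the set (y axis) against the residue counted from the first (left, first residue 1) or from the last (right, last residue -1). TRBV1 has 1 bar at position 3, TRA is spread around position 4 to 9, and other TRB chains peak at position 3 and at the last residue but 1.

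Few clonotypes had more than 1 extra cysteine: 2 in TRA, 16 in TRBV1 and 1 in the other TRB chains. The highest number was 3, in a TRBV15 chain of 53 residues with 2 counts and in a TRBV1-TRBJ2-4 chain of 25 residues with 1 count, in which the stretch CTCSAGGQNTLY appears again directly after itself.

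By V segment, the rate of an extra cysteine was low outside TRBV1. Among the 20 other TRBV names with at least 100 clonotypes, all had some, and the rate ran from 0.561% in TRBV13-3 (6 of 1069 clonotypes) to 2.54% in TRBV23 (5 of 197), with a median of 1.30%. TRBV15 followed TRBV23 with 1.89% (17 of 901) and TRBV5 with 1.76% (21 of 1192). Of the 5 TRBV23 clonotypes, 4 lay 1 residue from a much larger clonotype as defined above. With such clonotypes left out, the rate was 0.637% in TRBV23, 1.10% in TRBV15 and 0.941% in TRBV5. These were below 1.24% in TRBV2 and 1.21% in TRBV14, so the order of V names did not hold. Among 60 TRAV names of that size, 15 had none. The highest rates were 2.42% in TRAV19 (4 of 165), 2.38% in TRAV13D-1 (13 of 547) and 2.34% in TRAV15N-2 (4 of 171). Of the 13 in TRAV13D-1, 8 were not near a larger clonotype. TRAV13D-1 also had 3.40% of its counts in such chains, most of them from the single clonotype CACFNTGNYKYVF. Names that join several TRAV copies were kept as the table writes them, and near-identical copies cannot be told apart.

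**Figure D2:**
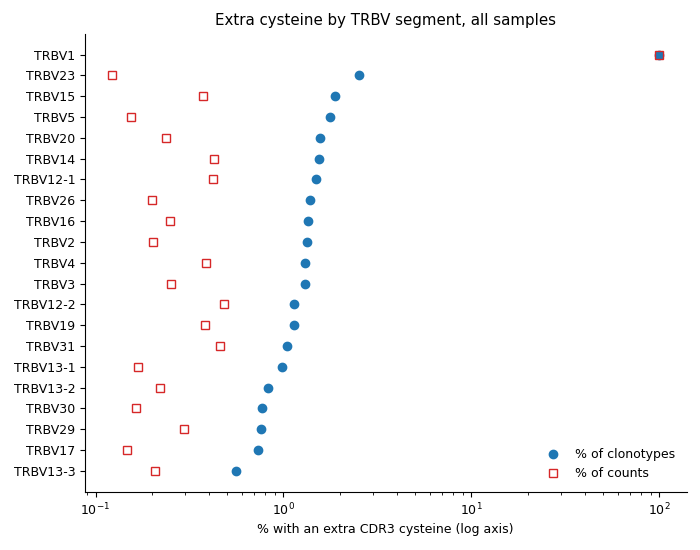
Percent of clonotypes (circles) and of counts (squares) with an extra CDR3 cysteine in each TRBV name with at least 100 clonotypes, over all samples, on a log axis. TRBV1 stands at 99.1% of clonotypes, and the other 20 lie between 0.561% and 2.54%.

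J segments differed as well. TRAJ40 (2.18%), TRAJ49 (1.83%) and TRAJ21 (1.57%) had the highest rates in TRA. In other TRB chains TRBJ2-7 had 1.59%, with 83 of the 293 clonotypes, and TRBJ1-2 the lowest rate at 0.493%. TRBV1 chains used TRBJ1-1 in 290 of 2226 clonotypes, against 2388 of the 25137 other TRB clonotypes (9.50%), and TRBJ2-7 in 16.2% against 20.7%. These are descriptions over all samples, without a test.

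In the brain, TRBV1 chains had their highest mean share of TRB counts in the untreated samples. Their share of TRB counts was 10.6% and 9.69% in the parts of untreated number 3 and 10.2% in number 7. In the lead-in alone it was 7.89%, 4.02%, 7.73% and 5.03%, and in trametinib alone 10.9%, 5.98%, 5.88% and 7.34%. In the concurrent combination it was 8.01%, 7.89%, 5.23% and 4.13%, and in the lead-in combination 5.73%, 7.25%, 5.21% and 4.75%. All 3 untreated values lay above every value of the groups with anti-PD-L1, while 1 trametinib sample, number 13 part 1, lay above them. The smallest of these samples held 266 TRB counts, so that 21 TRBV1 counts made its 7.89%.

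With TRBV1 included, the extra-cysteine share of TRB counts averaged 6.26% ± 1.17 (SD, n = 6 numbers) with anti-PD-L1 and 8.89% ± 1.65 (n = 4) without it. Compared within each day, the difference was -2.44 percentage points (exact two-sided permutation p = 0.0333). It did not pass after Benjamini-Hochberg adjustment over the 24 brain tests (exact permutation, adjusted p = 0.267), in a design where the smallest possible p was 0.0111. For the lead-in within day the difference was -2.30 percentage points (exact permutation p = 0.0889, adjusted p = 0.356). Both differences were above 0 when only cysteines outside the first 3 and last 3 residues were counted, which leaves the TRBV1 cysteine out.

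Outside TRBV1, the brain values rested on few counts. No other TRB chain with an extra cysteine was seen in the 3 untreated samples, which held 302, 320 and 605 TRB counts and allow shares of up to 0.993%, 0.938% and 0.496% (3 counts of the total). In the lead-in alone the shares of TRB counts were 0%, 0%, 0.263% and 0.393%, and in trametinib alone 0% in 3 samples and 0.282%, which was 1 count, in the fourth. In the concurrent combination they were 0.146%, 0.219%, 0% and 0.458%, and in the lead-in combination 0.165%, 0.192%, 0.382% and 0.0723%. The groups overlapped, and every value of 0 came from a sample with at most 1300 TRB counts.

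Over numbers, and as a share of the TRB counts left without TRBV1, such chains averaged 0.203% ± 0.114 (SD, n = 6) with anti-PD-L1 and 0.0381% ± 0.0762 (n = 4) without it. The difference within day was 0.155 percentage points (exact permutation p = 0.0333, adjusted p = 0.267). For the share of clonotypes the same comparison gave 0.387 percentage points, with the same exact permutation p and adjusted p. Depth moved with these groups, since the 6 deepest brain samples, of 3195 to 7067 TRB counts, all had anti-PD-L1. At equal depth the difference in clonotypes was 0.191 percentage points in place of 0.387 (exact permutation p = 0.167, adjusted p = 0.438). For counts, the part of depth was not tested. Without number 11 the difference in counts was 0.0938 percentage points.

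TRA chains with an extra cysteine were seen in 9 of 19 brain samples. The untreated samples had 0%, 0% and 0.157% of TRA counts, the last being 1 count of 635. The lead-in alone had 0%, 0%, 0.560% and 0%, trametinib alone 0%, 0.150%, 0% and 0%, and the concurrent combination 0%, 0.0468%, 0.353% and 0%. All 4 samples of the lead-in combination held them, at 0.124%, 0.0852%, 0.286% and 0.308%. These were 4 of the 5 deepest brain samples, with 5192 to 9389 TRA counts, and the 10 samples at 0 had at most 1918. A count of 0 allowed shares of 0.156% to 1.30% there, so an absence was not detectable at this depth. None of the 24 brain tests passed the threshold of 0.05, and 3 had an unadjusted exact permutation p under 0.05. All samples with trametinib carry day 3 and all without it day 0, so trametinib and day cannot be told apart. The largest difference of samples with trametinib from those without was -1.58 percentage points, for the TRB share of counts (exact permutation, adjusted p = 0.467). That value was -0.453 with samples under 500 counts left out, -0.918 without number 7 and -0.954 without number 3.

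**Figure D3:**
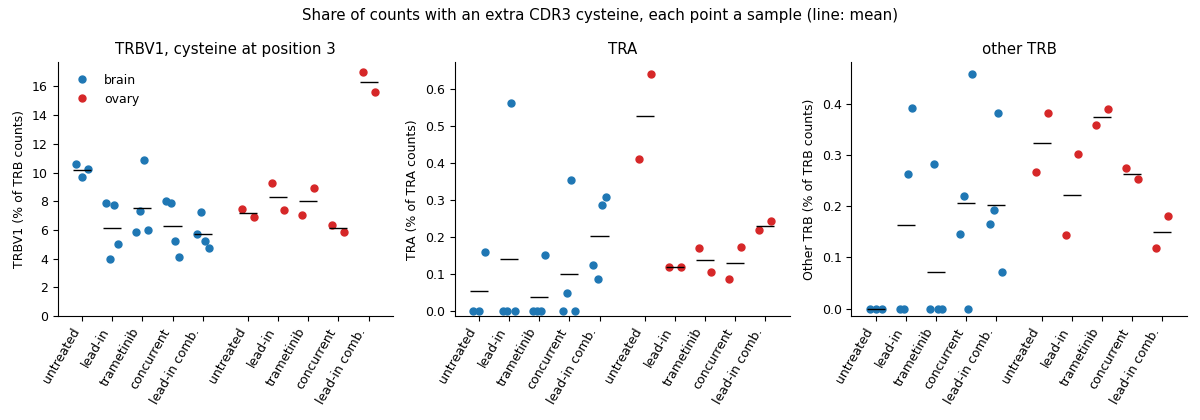
Share of counts with an extra CDR3 cysteine in each sample (points; line, mean of the group) for TRBV1 and other TRB chains (percent of TRB counts) and TRA chains (percent of TRA counts), by treatment in brain (blue) and ovary (red). The untreated brain samples sit at 9.69% to 10.6% for TRBV1, ovary number 12 at 15.6% and 17.0%, and many brain samples at 0 in the TRA and other TRB panels.

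In the ovary, every sample held all 3 kinds. TRBV1 took 7.48% and 6.93% of TRB counts in the parts of the untreated number 3, 9.26% and 7.41% in lead-in number 10, 7.05% and 8.92% in trametinib number 13, and 6.36% and 5.86% in concurrent number 1. In number 12, of the lead-in combination, the shares were 17.0% and 15.6%, above all other samples of either organ. A single clonotype, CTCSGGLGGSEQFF, took 8.93% and 10.9% of the TRB counts of these parts. With it left out of number 12, TRBV1 stood at 8.88% and 5.25%. The same clonotype was at 0.132% and 0.385% in the brain parts of number 12 and was seen in no other number.

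TRA chains with an extra cysteine took 0.411% and 0.639% of TRA counts in the ovary parts of untreated number 3, and between 0.0844% and 0.243% in the other 8 ovary samples. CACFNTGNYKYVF alone held 0.315% and 0.432% in these parts, with 118 and 94 counts, and was not seen in brain, where number 3 had 363 and 370 TRA counts. Other TRB chains ran from 0.119% in number 12 part 1 to 0.391% in number 13 part 2. With 1 number per ovary treatment, no treatment was compared there.

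Between the organs, TRA and other TRB chains with an extra cysteine held larger mean shares in the ovary than in the brain of the same 5 numbers. The exception within a number was the other TRB share of counts in number 12, at 0.178% in ovary and 0.191% in brain. TRA chains averaged 0.228% ± 0.172 of counts (SD, n = 5) in ovary and 0.0406% ± 0.0470 in brain. The lowest ovary number (0.119%) lay above the highest of these 5 brain numbers (0.104%). This did not hold for the brain numbers with no ovary sample. Numbers 14, 11, 6 and 7 had 0.297%, 0.280%, 0.177% and 0.157%, and number 8 had 0%. Brain numbers 3 and 10 were at 0%, from parts of 363 and 370, and 230 and 700 TRA counts. Of TRA clonotypes, chains with an extra cysteine made up 0.827% ± 0.301 in ovary and 0.138% ± 0.167 in brain. Both differences passed in a test that did not pair the organs of a number (exact two-sided permutation test, adjusted p = 0.0159 each over 6 tests). The tests of other TRB chains that follow were also unpaired, and the paired tests are given below. Other TRB chains averaged 0.291% ± 0.0896 of counts outside TRBV1 in ovary and 0.0779% ± 0.107 in brain (exact permutation, adjusted p = 0.0357). They made up 1.21% ± 0.189 and 0.237% ± 0.330 of clonotypes (exact permutation, adjusted p = 0.0159). Without number 3, whose ovary holds the largest such TRA chain, the difference in TRA counts was 0.103 percentage points in place of 0.187. With number 1, 3, 10 or 13 left out none of the 4 passed, with an adjusted p of at least 0.0571 in exact tests of 4 against 4.

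The same-numbered samples of the 2 organs correlated in V usage, number 13 only weakly. In each number, 21.6% to 39.9% of the brain TRB clonotypes were also in its ovary, against at most 4.02% for another number. In number 13 it was 33.0%. The organs of a number are thus paired, and the numbers were also used as a block. The ovary was higher in 5 of 5 numbers for both TRA measures and for other TRB clonotypes, and in 4 of 5 for other TRB counts. With the replicate block all 4 calls were lost (exact sign-flip test, adjusted p = 0.125, 0.125, 0.15 and 0.125 in the order above). The unadjusted p was 0.125 for other TRB counts and 0.0625, the smallest that 5 pairs allow, for the other 3 measures. With all 10 brain numbers against the 5 ovary numbers, the difference in counts was 0.116 percentage points for TRA (exact permutation, adjusted p = 0.163) and 0.154 for other TRB chains (adjusted p = 0.0544), while both clonotype differences had an adjusted p of 0.000999. Summed over all brain samples, TRA chains with an extra cysteine held 106 of 53950 counts, 0.196% (exact Clopper-Pearson 95% interval 0.161% to 0.238%, counting error only), and in ovary 601 of 265792, 0.226% (0.208% to 0.245%). In the brain of the 5 shared numbers they held 22 of 27444 counts, 0.0802% (0.0502% to 0.121%).

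The clonotype shares of the organs were also compared at equal depth, without the block. At equal depth (230 TRA and 266 TRB counts), the ovary minus brain difference went from 0.689 to 0.275 percentage points of clonotypes in TRA and from 0.973 to 0.324 in other TRB chains, with adjusted p = 0.0159 for each in the exact permutation test. TRB as a whole, which is mostly TRBV1, averaged 9.45% ± 4.01 of counts in ovary and 7.87% ± 1.63 in brain (exact permutation, adjusted p = 0.587). Without number 12 this difference was -0.461 percentage points.

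TRA and other TRB chains with an extra cysteine were small clones, and TRBV1 chains were not. Over all samples, the TRA chains had a mean of 4.04 counts and a median of 1, against 14.6 and 3 in the TRA clonotypes with none. Other TRB chains had a mean of 2.40 and a median of 1, against 10.6 and 3. TRBV1 chains had a mean of 11.4 and a median of 3. Clonotypes of a single count were 57.1% of the TRA chains with an extra cysteine and 31.2% of those with none, and 60.4% and 32.3% in other TRB chains. Clonotypes of 1% or more of their chain in a number were too rare to set the sets apart. In ovary they were 0 of 146 TRA and 0 of 248 other TRB chains with an extra cysteine and 5 of 1762 TRBV1 chains, beside 55 of 16440 TRA and 54 of 18935 TRB clonotypes with none. In brain they were 0 of 32, 0 of 48 and 4 of 649, beside 92 of 8655 and 73 of 7948.

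Within numbers, the mean counts per TRA clonotype with an extra cysteine, divided by that of those with none, ran from 0.132 to 0.577 in the 5 ovary numbers and from 0.222 to 0.823 in the 7 brain numbers that held any. For other TRB chains it ran from 0.139 to 0.269 in ovary and from 0.249 to 0.530 in 6 brain numbers. TRBV1 gave 0.785 to 1.82 in ovary and 0.687 to 1.21 in brain. The share of counts minus the share of clonotypes was -0.599 percentage points in TRA and -0.918 in other TRB chains in ovary, below 0 in 5 of 5 numbers each. The sign-flip test cannot pass there (exact p = 0.0625, the smallest 5 numbers allow). In brain the differences were -0.120 for TRA (exact p = 0.0156) and -0.213 for other TRB chains (exact p = 0.0312). These rest on the 7 and 6 brain numbers that held such chains, and the rest gave 0. In numbers 1, 7 and 13 (TRA) and number 8 (other TRB) every such chain had 1 count, so the difference could not exceed 0. With adjustment over 12 tests each of the 4 exact p-values was 0.125, so none passed.

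Binned by clone size, the ovary showed the same contrast. TRA chains with an extra cysteine were 1.73% of the clonotypes with 1 count in a number (87 of 5033, Clopper-Pearson interval 1.39% to 2.13%). They were 0.812% of those with 2 to 3 counts, 0.533% with 4 to 9, 0.272% with 10 to 29 and 0.0871% with 30 or more (1 of 1148). Other TRB chains were 2.47%, 1.14%, 0.687% and 0.495% in the same bins, and 0 of 892 clonotypes of 30 or more counts (upper bound 0.413%). TRBV1 stayed between 7.54% and 9.76% of TRB clonotypes in all 5 bins. In each of the 5 numbers the rate in the lowest bin exceeded that at 10 to 29 counts, for both TRA and other TRB chains.

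**Figure D4:**
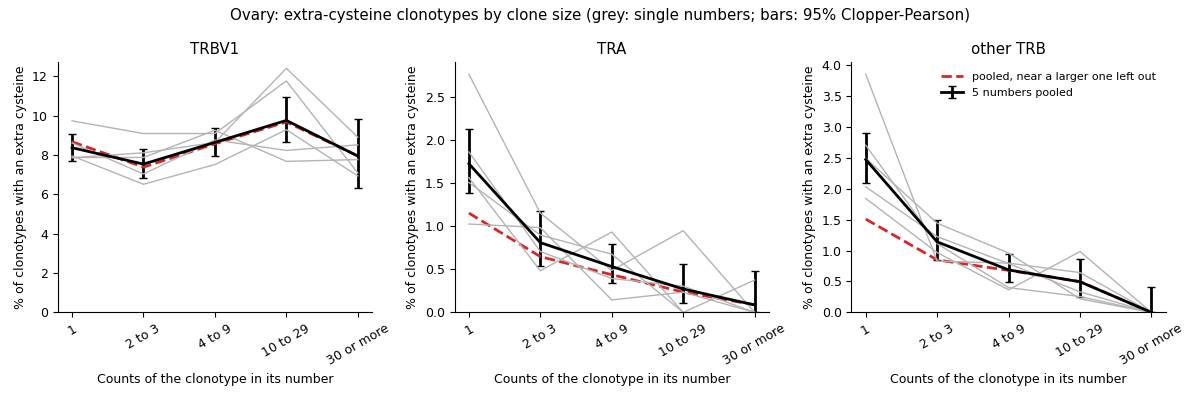
Ovary: percent of clonotypes with an extra cysteine against the counts of the clonotype in its number, for TRBV1 (of TRB clonotypes), TRA (of TRA) and other TRB (of TRB outside TRBV1). The black line pools 5 numbers with exact 95% intervals, grey lines are single numbers, and the dashed line leaves out clonotypes near a larger one: TRA goes from 1.73% to 0.0871%, and TRBV1 stays between 7.54% and 9.76%.

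Many of the small chains sat beside a large one. A clonotype was called near a larger one when, in each sample that held it, a clonotype of the same V and J names and the same length, different at 1 residue, had at least 10 times its counts. This held for 64 of 175 TRA chains with an extra cysteine (36.6%), against 10.3% of TRA clonotypes with none. In other TRB chains it held for 113 of 293 (38.6%) against 8.52%, and in TRBV1 chains for 183 of 2226 (8.22%). In ovary numbers the TRA values were 32.4% to 56.7% against 9.60% to 16.2%, with no overlap, and the other TRB values 28.6% to 54.5% against 7.94% to 13.1%.

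Small clonotypes are more often near a larger one in any case, so clonotypes of like size were also set side by side. Among ovary clonotypes of 1 count, 55.2% of the 87 TRA chains with an extra cysteine and 32.5% of the 4946 with none were near a larger one. In other TRB chains it was 55.4% of 148 against 26.2% of 5841. The first value was the higher in 5 of 5 numbers for both chains.

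**Figure D5:**
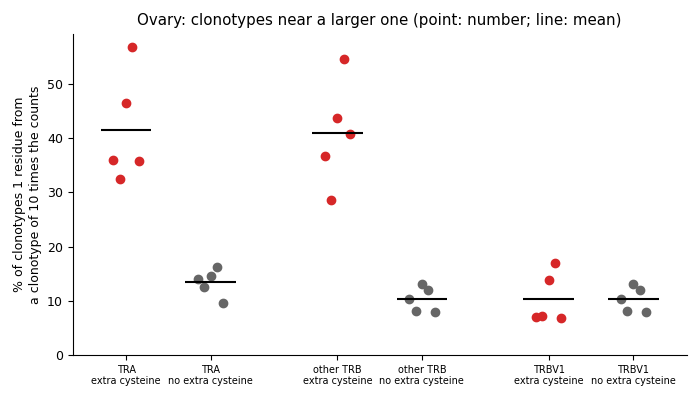
Ovary: percent of clonotypes that differ at 1 residue from a clonotype of at least 10 times their counts, with and without an extra cysteine, each point a number (n = 5) and the line their mean. TRA and other TRB chains with an extra cysteine lie at 28.6% to 56.7%, above every value of chains with none, and TRBV1 chains at 6.88% to 17.0% overlap with TRB chains with none.

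In these pairs the cysteine mostly stood in for tyrosine (Y). Where the larger chain lacked the extra cysteine, the residue replaced was tyrosine in 46 of 61 TRA pairs and serine (S) in 9, and in other TRB chains tyrosine in 65 of 110 and serine in 33. Many J segments encode a tyrosine, and most TRBV segments a serine at position 3, which are the places where the cysteines of other TRB chains were most frequent. Of the 84 with a cysteine at the last residue but 1, 49 were near a larger clonotype, and so were 25 of the 50 with it at position 3. Within 2 residues of the middle, 19 of 92 were. In TRA, 6 of the 37 at position 4 were near a larger clonotype, and 38 of the 93 within 2 residues of the middle.

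These examples, chosen after their values were seen, are printed because the small chain can be read against its neighbour.
TRAV7D-2-TRAJ49 larger: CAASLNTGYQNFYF
TRAV7D-2-TRAJ49 smaller: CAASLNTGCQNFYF
TRAV7D-2-TRAJ49 smaller: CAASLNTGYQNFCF
TRBV16-TRBJ2-7 larger: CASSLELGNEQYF
TRBV16-TRBJ2-7 smaller: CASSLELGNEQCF
TRBV16-TRBJ2-7 smaller: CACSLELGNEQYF
Relative to the larger TRA chain the smaller ones carried Y9C and Y13C, with 11 and 8 counts over all samples against 19003. Relative to the larger TRB chain they carried Y12C and S3C, with 4 and 1 counts against 4643. The most abundant TRA and other TRB chains printed above were not near a larger clonotype.

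Gaining a cysteine was not the usual difference among all clonotypes near a larger one. Of 2297 TRA clonotypes near a larger one, 61 (2.66%) had cysteine as the differing residue, the 15th most frequent of 20 residues, and serine came first with 328. Of 2221 TRB clonotypes outside TRBV1, 110 (4.95%) had cysteine, the 6th most frequent. Cysteine was lost more often than gained. The larger clonotype had it as the differing residue in 162 of these TRA pairs (7.05%) and 164 of these TRB pairs (7.38%). Whether such pairs are separate T cell clones or arose in library preparation or sequencing was not tested, and no count of molecules was available to tell the 2 apart.

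With clonotypes near a larger one left out, chains with and without the cysteine alike, 111 TRA chains remained (0.565% of TRA clonotypes) and 180 other TRB chains (0.785%). They were still small, with a mean of 5.35 counts in TRA against 16.1, and 3.13 in other TRB chains against 11.4. In ovary clonotypes of 1 count the TRA rate was then 1.15% and the other TRB rate 1.51%, against 0.237% and 0.499% at 10 to 29 counts. The differences between organs were 0.153 (TRA counts), 0.406 (TRA clonotypes), 0.182 (other TRB counts) and 0.630 percentage points (other TRB clonotypes), each with adjusted p = 0.0238 (exact permutation, unblocked). This setting was chosen after the data had been seen.

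Sharing between numbers also set TRBV1 apart from the other sets. Of TRBV1 chains, 3.05% were found in 2 or more numbers, and of TRB clonotypes with no extra cysteine 2.95%. Of other TRB chains 1 of 293 (0.341%) was, and of TRA chains 2 of 175 (1.14%), against 6.69% of TRA clonotypes with none. Smaller clonotypes are seen in fewer samples, and these shares were not matched for size. The most widely shared was a TRBV1-TRBJ1-4 chain of 15 residues that opens CTCSAGT, in 5 numbers with 16 counts in all. The TRBV1-TRBJ1-2 chain that opens CTCSAEG was in 4 numbers and 13 samples. Its share in ovary was 0.865% and 0.931% in number 13, 0.536% and 0.596% in number 1, 0.449% and 0.355% in number 12 and 1.14% and 0.769% in number 10, and it was not seen in number 3. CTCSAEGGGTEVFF was found in numbers 10, 12 and 14, which all had the lead-in, and not in number 11, which also had it.

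Between the organs of 1 number, 94 of 356 TRBV1 chains found in brain (26.4%) were also in ovary, against 25.8% of the 4140 TRB clonotypes with no extra cysteine. For TRA chains it was 1 of 13, against 27.6% of 4495, and for other TRB chains 2 of 22. The brain counts behind the last 2 are too few to tell them from the background.

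CDR3 length differed little. TRB chains with an extra cysteine were longer than the others by 0.259 residues in brain (7 of 10 numbers, exact sign-flip p = 0.0410, adjusted p = 0.125) and by 0.443 in ovary (5 of 5 numbers, p = 0.0625 by the exact test, the smallest possible). Of these chains 88.4% were TRBV1, so this mostly compares TRBV1 with other V segments. TRA chains differed by -0.265 residues in brain and 0.427 in ovary, and other TRB chains by -0.132 and 0.240, none past the threshold.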

How the data were processed

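In 29 samples, receptor transcripts were sequenced from RNA with the QIAseq Immune Repertoire kit, as the labels' protocols give it. The authors deposited 1 table of whole-number counts per chain, V name, J name and CDR3 in each sample. No source used here says if counts are reads or molecules. The clonotype caller is not given in the sources used here. GRCh38, a human build, is named per the submitters' processing notes, so no coordinates are given. The 176 combinations with an unresolved residue (0.0364% of counts) were left out. No stop or frame mark occurs in the table, so every other row was taken as productive. Of 173 V names, 81 join several segments.

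Parts of a number were averaged, and tests ran over numbers: exact two-sided permutation of the difference in means (within day for lead-in and anti-PD-L1; of the sum of squares for 5 treatments), and exact sign-flips for clone size and length. P-values were adjusted by Benjamini-Hochberg within families of 24 brain, 6 organ and 12 size and length tests. The members and lists were chosen with earlier results of these data known. Named are V segments that encode the cysteine, and the 3 highest other V names per chain with at least 100 clonotypes and the lowest. Also named, among chains with an extra cysteine, are the largest clonotype per chain and group and the 3 per chain found in most numbers. The 3 largest of them outside TRBV1 and those with most cysteines are named too. J segments, pairs and counts set beside them were chosen after their values were seen.

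V usage of same-numbered brain and ovary samples correlated above 0.1 in each number, the limit set for pairing: over 74 V names of at least 1000 counts, log2 percentages (pseudocount 0.1) correlated at 0.336, 0.269, 0.300, 0.650 and 0.167 in numbers 1, 3, 10, 12 and 13. Number 13 correlated slightly better with another number (0.176). No pair of sample columns was identical. Intervals are exact Clopper-Pearson 95% intervals, and a count of 0 allows 3 counts of the total; both cover counting error only. The neighbour search was tried on planted variants of fixed counts, and the tests on normally distributed values. Neither simulation had the zeros and unequal depth of these samples. Python 3.11.15, numpy 2.4.6, pandas 2.3.3, scipy 1.17.1 and matplotlib 3.10.9 were used.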

Additional observations from a re-analysis of the deposited data

Results flagged for a closer look

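In 24 groups of 4 brain samples, 7 values stood far from the rest of their group. A chance rate of about 1 in 20 groups cannot be set beside this. Groups in which most samples are at 0 are flagged by a single count, and the shares of counts and of clonotypes of 1 sample are not independent. An excess over chance was not tested. For TRA chains with an extra cysteine, the lead-in sample number 11 part 1 had 0.560% of counts (38 counts, 7 clonotypes) and 0.688% of clonotypes, with the other 3 samples of its group at 0. Its 6782 TRA counts were the most in that group. The concurrent sample number 6 part 1 had 0.353% of counts (6 counts), against 0%, 0% and 0.0468%. The trametinib sample number 13 part 2 had 0.150% of counts and 0.392% of clonotypes, both from 1 count. For TRB chains outside TRBV1, the trametinib sample number 8 part 2 had 0.305% of counts and 0.775% of clonotypes, also from 1 count, with the others at 0.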

How the results depend on the processing

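Of 432 values under other settings, 397 kept their direction and side of the threshold, as did 406 of 444 with a number or part left out. That says little of stability, since most results did not pass and some could not, and 91 of the 397 and 88 of the 406 moved by over 1.5 times. All values here are percentage points unless given as residues, and the cause of a change was not tested. The organ differences no longer passed with the replicate block (0.187, 0.689, 0.214 and 0.973 for TRA counts, TRA clonotypes, other TRB counts and other TRB clonotypes; 5 pairs allow no smaller p than 0.0625) nor with a minimum of 500 counts, which leaves fewer numbers (0.103, 0.652, 0.180 and 0.900). With all 10 brain numbers, chosen after the data were seen, the count differences were 0.116 and 0.154 and no longer passed, while TRB clonotypes passed at 1.85. With a number or part left out the 4 ran over 0.103 to 0.218, 0.632 to 0.786, 0.165 to 0.270 and 0.844 to 1.10. TRB as a whole passed between organs with central cysteines only (0.156 of counts, 0.495 of clonotypes), and its count difference was -0.000275 without the largest chain and -0.461 to 2.64 with numbers left out (clonotypes 0.864 to 1.85). In brain, central cysteines turned the TRB differences for lead-in (0.0916 of counts, 0.219 of clonotypes), anti-PD-L1 (0.122, 0.239) and trametinib (0.0167 of counts). The trametinib difference, which is also that of day 3 from day 0, was 0.00338 in TRA counts. It was -0.0464 with parts pooled, -0.00146 with central cysteines, -0.0331 with 500 counts, -0.00838 without chains near a larger one, and -0.0667 to 0.0734 with samples left out. In TRA clonotypes it was -0.0224 with 500 counts (-0.0404 to 0.135 with samples left out), and in TRB clonotypes -0.701 without single counts and -0.280 at equal depth (-0.628 to 0.715). With each part as its own sample, which treats parts as independent, clone size passed in TRA (-0.110 brain, -0.599 ovary) and other TRB chains (-0.224, -0.918), and TRB length by 0.240 and 0.440 residues. TRB length in brain was -0.136 residues with central cysteines. Ovary TRB clone size was 0.243 without single counts, 0.155 without chains near a larger one, and -1.64 to 0.246 with numbers left out. Lengths with samples left out ran over -0.350 to 0.0849 residues in other TRB chains in brain and -0.0553 to 1.07 in TRA in ovary. Parts were not pooled for length, and equal depth applies to clonotype shares only. Depth limits the brain most, where 10 of 19 samples held no TRA chain with an extra cysteine.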

Other observations

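The leading TRBV1 chain differed between the brain groups, which hold 2 numbers each. Only 3.05% of TRBV1 chains were found in 2 or more numbers, so a link to treatment cannot be read from this. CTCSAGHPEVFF led the untreated samples, with 0.993% and 2.19% of TRB counts in the brain parts of number 3 (3 and 7 counts) and 0.348% and 0.525% in its ovary parts. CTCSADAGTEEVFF led the concurrent combination, at 0.728% and 1.22% in the brain of number 1 and 0.225% and 0.343% in its ovary. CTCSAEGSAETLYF led the lead-in alone, at 1.88% and 1.18% in number 11, and was also in number 6 at 1.08% and 0.262%. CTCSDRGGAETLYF led trametinib alone with 7 counts in 1 sample, number 8 part 2. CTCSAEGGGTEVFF led the lead-in combination, at 0.922% and 0.321% in number 12 and 1.15% and 0.313% in number 14. It also led the ovary samples of the lead-in alone. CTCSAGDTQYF, of 11 residues, was in 4 numbers, at 0.451% and 0.215% in the ovary of number 1, 0.257% and 0.298% in number 10, and 0.143% and 0.0265% in number 3.

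The leading TRA chains with an extra cysteine were each found in 1 number. In the brain of the lead-in combination it was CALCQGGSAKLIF (TRAV13D-1-TRAJ57), at 0.112% and 0.154% in number 14. Of the 10 group leaders, 5 had the cysteine at position 4. The TRA chains found in 2 numbers were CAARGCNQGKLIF (TRAV7D-2-TRAJ23, 4 counts) and a TRAV10-TRAJ27 chain of 15 residues that opens CAASLC (2 counts), and both were near a larger clonotype that differed by Y6C.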
